A study of Homo sapiens with 24 samples.

Results

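The step from 2 to 5 mM butyrate in control cells was measured as the difference between 3 arrays of siMock-transfected HCT116 cells at 5 mM and 3 arrays at 2 mM, which are 6 of the 24 arrays of the study. The arrays were chosen by their labels alone, all 18172 entries with a gene symbol among the 20747 deposited entries were tested, and untreated arrays did not enter the difference. HCT116 is an established human colorectal carcinoma cell line. The study gave siACL, which depletes ATP citrate lyase, or siMock, the control transfection, to cells that then received butyrate at 0, 0.5, 2 or 5 mM, and it hybridised 3 Illumina arrays in each of the 8 groups. Both groups compared here carried siMock, grew with glucose and had butyrate for 3 days, so their labels differ in dose alone. The arrays of a group are called biological replicates of 1 cell line, and no culture, slide or batch is named in the sources used here, so a p-value measures the spread between these arrays.

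Butyrate is produced by bacteria that ferment fibre in the colon. Colonocytes burn it as fuel, and it inhibits histone deacetylases, the enzymes that remove acetyl groups from histones, which leaves chromatin hyperacetylated and arrests the growth of many carcinoma lines. Genes of S phase are switched on through E2F sites at the start of DNA synthesis, whereas genes of mitosis peak later, through promoter elements bound by the DREAM and MuvB complexes together with NF-Y.

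Every value is a normal score, that is, the rank of a gene within its array placed on a normal curve, so 0 is the middle of the array and the values run from -3.90 to 3.90. A difference of scores is a change of place among all genes and has no fold change, rises of some genes displace others downwards, and ranks cannot show a change common to every gene. Differences are given ± their standard error from limma, and "rose" or "fell" is used where the adjusted p (Benjamini-Hochberg, over 18172 genes) was under 0.05. Genes carry the symbol printed in the annotation of the array, and a newer symbol follows in parentheses.

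Raising the dose from 2 to 5 mM moved 5315 of 18172 genes, 2569 higher and 2746 lower, so that 29.2% of all genes were called, 14.1% higher and 15.1% lower. The scores of the 3 arrays at 5 mM did not overlap those of the 3 arrays at 2 mM in 7280 genes (40.1%), of which 3817 (21.0%) were higher and 3463 (19.1%) lower, and 5054 genes met both conditions. Most called changes were small. Their median size was 0.177, and 1651 of them reached 0.25, with 684 higher and 967 lower. Changes of at least 1 were found for 124 rises and 73 falls. The last gene called had an adjusted p of 0.0499 and the first not called one of 0.05. The median difference over all genes was 0.007.

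**Figure D1:**
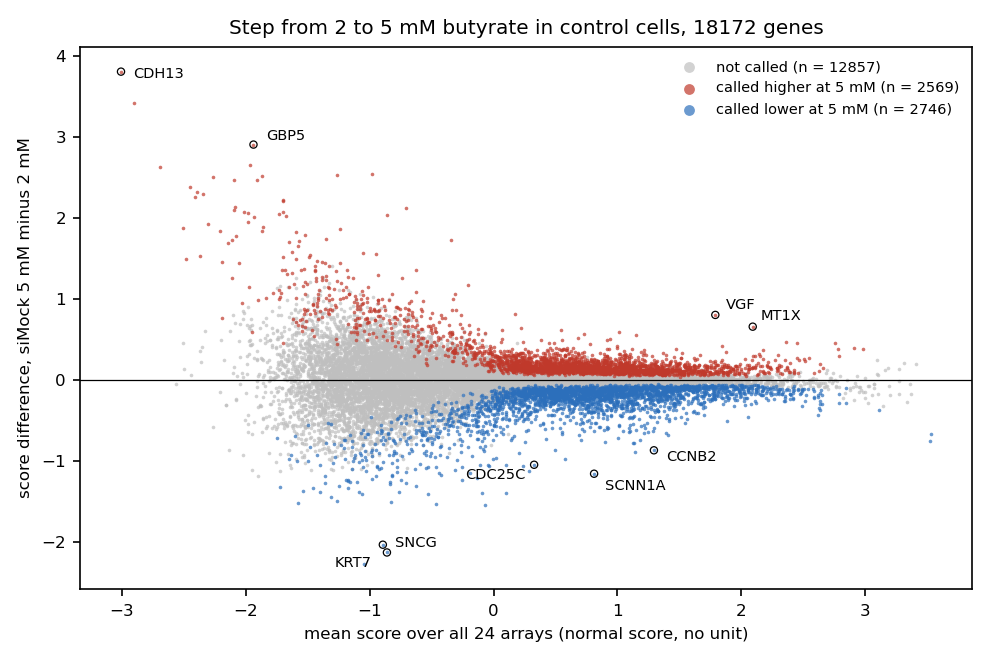
Each point is a gene, placed by its mean score over all 24 arrays (x axis) and by its score difference at 5 mM minus 2 mM in siMock (y axis); colours show calls by limma and circles mark 9 genes of the text. Differences above 1 lie mainly among genes with low mean scores, where rises reach 3.81, while called genes in the right part of the plot mostly lie within 0.25 of 0.

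The spread between arrays fell with expression. With genes put in 4 classes of 4543 by mean score, the median residual SD was 0.416 in the lowest class and 0.189, 0.047 and 0.033 in the classes above it, and 7.88%, 14.4%, 41.3% and 53.4% of their genes were called. Calls in the lowest class had a median size of 0.969 and leaned to rises, 241 against 117. In the highest class the median size was 0.144, with 1071 higher and 1356 lower. Large differences of weakly expressed genes and small ones of strongly expressed genes are therefore not measured with the same precision, and signal over background is unknown.

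The machinery of mitosis fell almost without exception. Of 22 measured kinases, cyclins and regulators of entry into mitosis 21 fell (median difference -0.585), of 24 spindle and kinesin genes all 24 fell (median -0.521), and of 30 kinetochore, checkpoint and anaphase-promoting complex genes 27 fell (median -0.458), with none higher in these lists, beside 15.1% of all genes. In bulk RNA, fewer cells in mitosis and less of these transcripts per cell cannot be told apart. CCNB2, the gene of cyclin B2, which activates CDK1 at the entry into mitosis, scored 0.49, 0.45 and 0.57 on the 5 mM arrays, against 1.38, 1.39 and 1.36 on the 2 mM arrays. Every 5 mM array lay below every 2 mM array, and the gene held the 69.4 percentile of the array at 5 mM and the 91.5 percentile at 2 mM. The difference was -0.87 ± 0.03 (limma, adjusted p = 1.45e-12).

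CDC25C, the phosphatase that removes the inhibitory phosphates of CDK1, scored -0.40, -0.74 and -0.58 at 5 mM, against 0.44, 0.51 and 0.47 at 2 mM (difference -1.05 ± 0.05, adjusted p = 1.28e-10). PLK1, a kinase needed for centrosome maturation and spindle assembly, scored -0.30, -1.10 and -1.24 at 5 mM, against 0.15, 0.08 and 0.02 at 2 mM. Its difference of -0.96 ± 0.16 had a wider error, since 1 of the 5 mM arrays lay well above the other two. GTSE1, a microtubule-associated protein of G2 and M phase, fell by 0.73 ± 0.03 and AURKB, the kinase of the chromosomal passenger complex, by 0.65 ± 0.03. Cyclin B1, CCNB1, and CDC2 (CDK1) each fell by 0.64, and FOXM1, a transcription factor of G2 and M phase genes, fell by 0.65 ± 0.04. The exception in the list was MYBL2, a partner of the MuvB complex, with a difference of -1.08 ± 0.42 (adjusted p = 0.0611).

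KIF20A, a kinesin of the central spindle needed for cytokinesis, scored 0.32, 0.36 and 0.26 at 5 mM, against 1.22, 1.22 and 1.18 at 2 mM. The groups did not overlap, and the difference was -0.89 ± 0.03 (adjusted p = 5.13e-12). KIF4A, a chromosome-bound kinesin, fell by 0.87 ± 0.06, HMMR, a spindle assembly factor, by 0.78 ± 0.02 and ASPM, a spindle pole protein, by 0.63 ± 0.04. Among kinetochore and exit genes, BIRC5, the gene of survivin, fell by 0.76 ± 0.04, CENPA, the centromeric histone H3 variant, by 0.67 ± 0.03 and UBE2C, the ubiquitin-conjugating enzyme of the anaphase-promoting complex, by 0.69 ± 0.02. CDC20, the activator of that complex, scored 1.41, 1.41 and 1.42 at 5 mM, against 1.91, 1.91 and 1.92 at 2 mM. NUF2, part of the NDC80 complex that holds microtubules, was measured by 2 entries, and both fell. The entry named NUF2 fell by 0.69 ± 0.05 and the entry named CDCA1, an older name, by 2.28 ± 0.31, from scores of -0.57, -0.48 and -0.65 at 2 mM. UBE2S, a second ubiquitin-conjugating enzyme of the anaphase-promoting complex, had 2 entries as well, with -0.82 ± 0.29 for UBE2S, a call that ended without any 1 of 3 arrays, and -0.22 ± 0.03 for LOC731049.

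Of 14 condensin and cohesin genes, which fold chromosomes and hold sisters together, 12 fell and none rose (median -0.302). Over all genes 15.1% fell and 14.1% rose. TOP2A, the topoisomerase that untangles sister chromatids, fell by 0.65 ± 0.03, NCAPG of condensin by 0.43 ± 0.02 and NCAPD2 by 0.39 ± 0.03. ESCO2, the acetyltransferase that establishes cohesion, had the largest fall of the list, -1.53 ± 0.31, with scores of -0.90, -2.36 and -1.66 at 5 mM, against -0.13, -0.11 and -0.10 at 2 mM. Outside these lists, PRR11, a gene of late cell cycle, fell by 1.06 ± 0.10, and CEP76, a centriolar protein gene, by 1.40 ± 0.30.

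**Figure D2:**
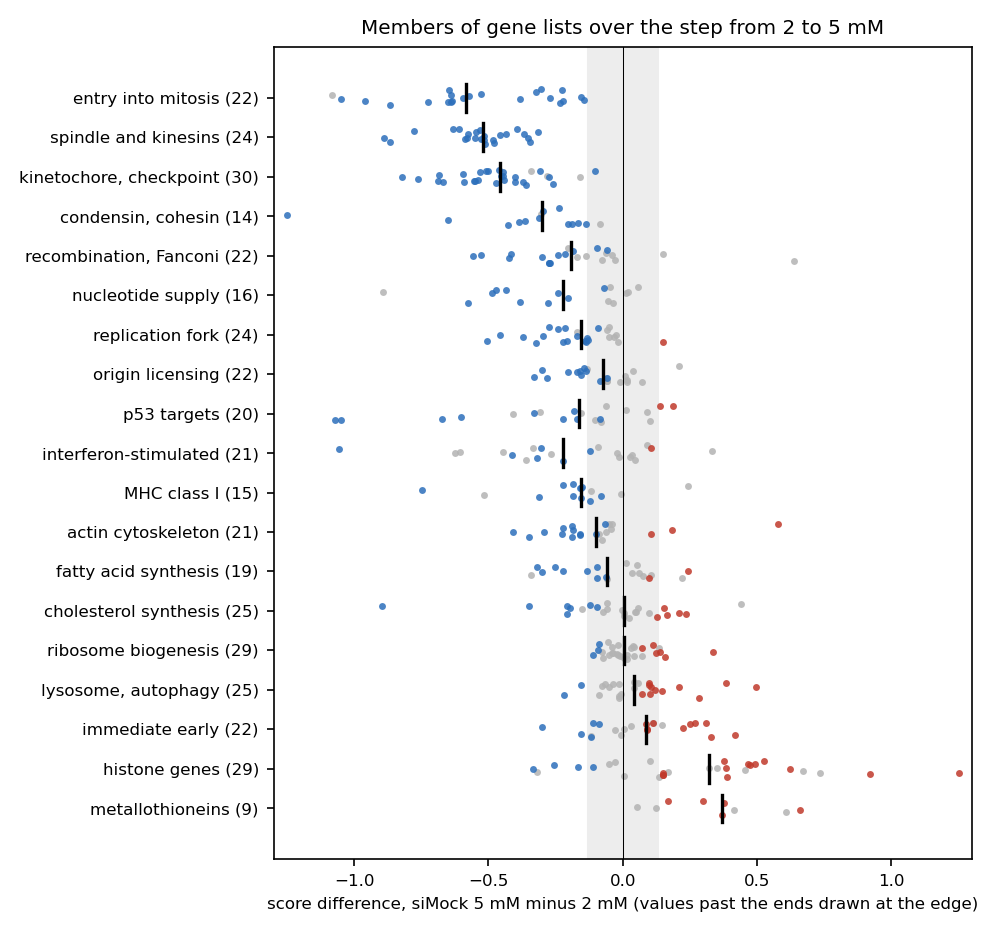
Each point is a measured member of a gene list (number of members in brackets), placed by its score difference at 5 mM minus 2 mM in siMock; red and blue points were called higher and lower by limma, grey points were not called, and values past the ends of the axis are drawn at its edge. Black bars are list medians and the grey band holds the middle 50% of all genes. The mitosis lists at the top lie left of the band with medians of -0.585, -0.521 and -0.458, while metallothioneins (0.368) and histone genes (0.322) lie right of it.

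The promoters of the mitosis lists are shown because their members moved together. RefSeq promoter windows (GRCh38.p14, 250 bases before to 50 after the start of a gene) were available for 63 members of the 3 mitosis lists. The letters TTTGAA, the core of the cell cycle genes homology region (CHR), stood on either strand in 40 of these 63 windows (63.5%), beside 1087 of 10347 windows of genes tested (10.5%). The letters CCAAT, bound by NF-Y, stood in 71.4% of the mitosis windows and 36.9% of the windows of genes tested, and both stood in 49.2% and 4.54%. Below are the 150 bases before the start of the called member of each list with the smallest adjusted p that held both, with both motifs in capitals. CCNB2 lies at chr15:59104996-59105145, HMMR at chr5:163460482-163460631 and CDC20 at chr1:43358831-43358980, all on the plus strand. CDC20 was chosen after its values were seen.
CCNB2: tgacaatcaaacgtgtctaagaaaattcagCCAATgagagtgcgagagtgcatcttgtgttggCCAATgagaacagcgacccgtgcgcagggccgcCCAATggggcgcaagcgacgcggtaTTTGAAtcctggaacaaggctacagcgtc
HMMR: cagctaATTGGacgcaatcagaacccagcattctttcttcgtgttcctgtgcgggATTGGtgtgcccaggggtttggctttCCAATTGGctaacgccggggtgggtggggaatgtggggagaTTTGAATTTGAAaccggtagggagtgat
CDC20: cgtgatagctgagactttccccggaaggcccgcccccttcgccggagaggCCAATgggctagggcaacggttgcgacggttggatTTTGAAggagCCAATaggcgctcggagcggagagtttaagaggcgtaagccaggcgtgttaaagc
In CCNB2 the TTTGAA starts 29 bases before the start of the gene, downstream of 3 CCAAT boxes. HMMR holds TTTGAA 2 times in a row and 4 CCAAT matches, of which a forward and a reverse one overlap. A match is a description of these letters and not a measured binding site.

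DNA replication genes fell less, and fewer of them. Of 24 fork genes 16 fell and 1 rose (median -0.156), of 22 origin licensing genes 11 fell and none rose (median -0.073), and of 16 genes of nucleotide supply 9 fell and none rose (median -0.222). Over all genes 15.1% fell and 14.1% rose. RRM2, the small subunit of ribonucleotide reductase, scored 0.62, 0.57 and 0.60 at 5 mM, against 1.20, 1.20 and 1.11 at 2 mM. All 5 mM arrays lay below all 2 mM arrays, but the means at untreated and 0.5 mM were 0.87 and 0.69, so the 2 mM level was the highest of the 4 doses and the step (-0.58 ± 0.05) brought it down again. A second RRM2 entry, C2ORF48, differed by -0.41 ± 0.26 and was not called (adjusted p = 0.274). TK1, the thymidine kinase, fell by 0.43 ± 0.02 and DUT, which removes dUTP, by 0.47 ± 0.04. The histone chaperone gene ASF1B fell by 0.46 ± 0.03, RFC5 of the clamp loader by 0.37 ± 0.02 and POLE2 of polymerase epsilon by 0.32 ± 0.03, while RFC1, the large subunit of the clamp loader, rose by 0.15. CHAF1A of chromatin assembly factor 1 fell by 0.50 ± 0.17, a call that ended without any 1 of 4 arrays. Among licensing genes, CDT1, which loads the helicase, fell by 0.33 ± 0.04, and the helicase subunits MCM7 and MCM5 fell by 0.30 ± 0.02 and 0.28 ± 0.04. Of 22 genes of homologous recombination and the Fanconi pathway 13 fell and none rose (median -0.193), among them FANCD2 by 0.56 ± 0.03, RAD51AP1 by 0.53 ± 0.04 and FANCI by 0.42 ± 0.03.

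Promoters of the 3 replication lists were searched in the same way. TTTGAA stood in 7.27% of their 55 windows, whereas an E2F motif (the letters TTCCCGC, or else TTGGCGC, or else TTGCCGC, or else TTCGCGC, on either strand, of which TTGGCGC can share bases with a reversed CCAAT) stood in 58.2%, beside 19.8% of the windows of genes tested and 28.6% of the mitosis windows. The lists differed, with an E2F motif in 77.3% of fork windows and 63.2% of licensing windows but in 3 of 14 nucleotide supply windows (21.4%), near the share of genes tested. TYMS, thymidylate synthase, of the nucleotide supply list, had the smallest adjusted p among called members with an E2F motif in the last 150 bases and was chosen after its values were seen. It scored 1.09, 1.14 and 1.16 at 5 mM, against 1.50, 1.54 and 1.51 at 2 mM. Its bases lie at chr18:657503-657652 on the plus strand, with the reversed E2F motif in capitals.
TYMS: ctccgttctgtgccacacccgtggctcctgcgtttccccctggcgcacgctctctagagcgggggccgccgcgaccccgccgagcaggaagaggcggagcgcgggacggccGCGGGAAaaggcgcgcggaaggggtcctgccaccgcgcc

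**Figure D3:**
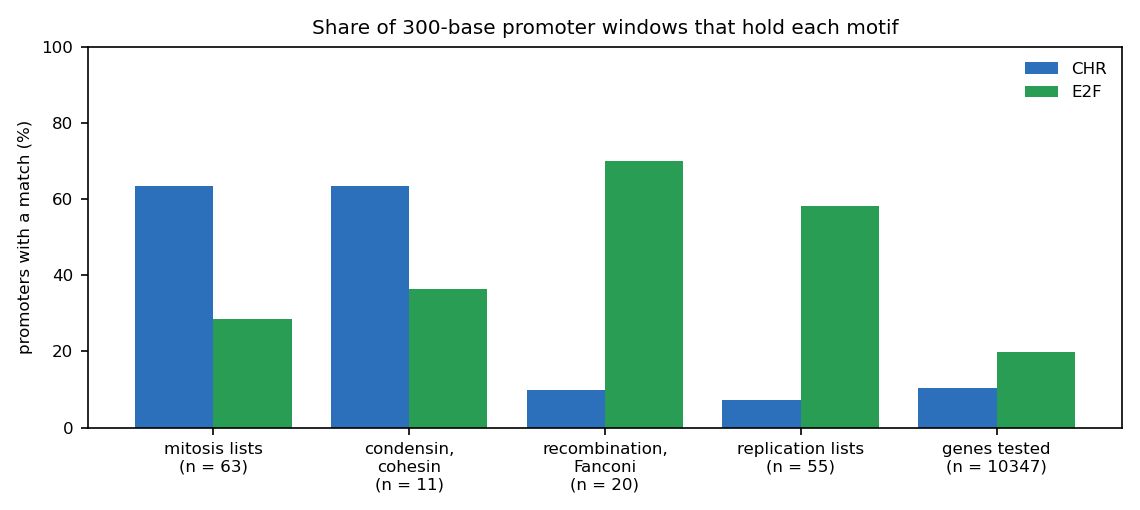
Bars give the share of promoter windows of each gene set (x axis, number of windows in brackets) that hold a CHR core (blue) or an E2F motif (green), in percent. The mitosis lists stand at 63.5% for CHR and 28.6% for E2F, the replication lists at 7.27% and 58.2%, and all genes tested at 10.5% and 19.8%.

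Inhibitors of the cell cycle did not rise as a group in the step. Of 20 CDK inhibitor and growth arrest genes 4 rose and 9 fell, beside 14.1% higher and 15.1% lower over all genes. CDKN1A, the gene of p21, scored 1.67, 1.70 and 1.72 at 5 mM, against 1.84, 1.87 and 1.92 at 2 mM, a fall of 0.18 ± 0.02. CDKN2A, the gene of p16 and ARF, fell by 1.22 ± 0.10, with scores of -1.21, -1.25 and -1.71 at 5 mM, against -0.09, -0.17 and -0.27 at 2 mM. The pocket protein genes moved apart: RBL1 (p107) fell by 0.84 ± 0.18 and RBL2 (p130) rose by 0.26 ± 0.04. CDKN1B differed by -0.09 ± 0.04 (adjusted p = 0.0923). Of 14 G1 cyclin and E2F genes 8 fell and 2 rose, and 5 to 8 fell when 1 array was left out. Among them were E2F7 lower by 0.27 ± 0.03, E2F2 lower by 0.23 ± 0.03 and the G1 cyclin gene CCND1 higher by 0.15 ± 0.02. In the MYC network of 11 genes, the MYC antagonists MXD1 (0.33 ± 0.07) and MXD4 (0.27 ± 0.03) rose, none fell, and MYC itself differed by 0.03 (adjusted p = 0.398). The share called in that network, 18.2%, was below the 29.2% of all genes.

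Of 20 targets of p53 9 fell and 2 rose (median -0.161), beside 15.1% lower and 14.1% higher over all genes. When 1 array was left out, 1 to 3 were higher. PHLDA3, a p53-induced inhibitor of AKT, scored -0.64, -0.88 and -0.95 at 5 mM, against 0.22, 0.14 and 0.31 at 2 mM, a difference of -1.05 ± 0.07 (adjusted p = 2.96e-09). DDB2, a damage recognition protein, fell by 0.60 ± 0.03 with no overlap between the groups. FDXR, a mitochondrial reductase, differed by -1.07 ± 0.32 and the death receptor FAS by -0.67 ± 0.24, but these calls ended without any 1 of 3 and of 4 arrays, and without the lowest 5 mM array the values were -0.63 and -0.29. Of 18 BCL2 family genes 5 fell and 2 rose, so that 38.9% were called, beside 29.2% of all genes. The BH3-only genes split, with BIK higher by 0.32 ± 0.03 and BID and PMAIP1 lower by 0.30 ± 0.04 and 0.18 ± 0.03. Of 17 death receptor and caspase genes 1 rose and 4 fell, and leaving out 1 array gave 0 to 1 higher and 1 to 4 lower. The share called in that list, 29.4%, was near the 29.2% of all genes.

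The largest rises were in genes that ranked near the bottom of the arrays at 2 mM. CDH13, a cadherin without a cytoplasmic tail, scored -0.02, 0.09 and 0.01 at 5 mM, against -3.90, -3.55 and -3.90 at 2 mM, so it moved to the middle of the array, the 51.0 percentile, from the lowest ranks. The difference of 3.81 ± 0.16 (adjusted p = 1.51e-11) was the largest of all genes named. GBP5, a guanylate-binding protein, scored 0.60, 0.65 and 0.60 at 5 mM, against -2.62, -2.18 and -2.07 at 2 mM (difference 2.91 ± 0.29). RYR3, a calcium release channel, rose by 2.65 ± 0.25, the calmodulin-binding peptide gene PCP4 by 2.33 ± 0.24 and the kinase gene STK32B by 2.29 ± 0.24. Several are known mainly from testis, seminal vesicle or eye. The semenogelin genes SEMG1 and SEMG2, which encode the main proteins of the semen clot, rose by 2.47 ± 0.26 and 2.53 ± 0.29, VCX of the X-linked VCX family by 2.63 ± 0.27, COX7B2, a testis form of a cytochrome oxidase subunit, by 2.50 ± 0.26, the crystallin gene CRYBA4 by 2.54 ± 0.46 and the lengsin gene LGSN by 2.39 ± 0.21. The GTPase gene IRGM rose by 2.48 ± 0.30. VCX genes are near-identical copies, so which of them was measured is uncertain. As lists, cancer-testis genes (2 of 13 higher, 1 lower, none lower without some single arrays) stayed near the 14.1% of all genes that rose.

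Among genes above the middle of the array, the rises were smaller and more precise. VGF, a neurosecretory protein precursor, scored 2.93, 2.95 and 3.10 at 5 mM, against 2.20, 2.20 and 2.17 at 2 mM (difference 0.80 ± 0.05). ARRDC4, an arrestin-related gene induced by glucose, rose by 0.81 ± 0.21, the synaptotagmin gene SYT11 by 0.64 ± 0.08, CALCOCO1, an autophagy receptor, by 0.61 ± 0.10, the atypical cyclin gene CCNO by 0.59 ± 0.02 and STX1A, a syntaxin of exocytosis, by 0.50 ± 0.04. ACSL5, an acyl-CoA synthetase of the gut, scored 0.91, 0.97 and 0.91 at 5 mM, against 0.38, 0.34 and 0.36 at 2 mM. Its means at untreated and 0.5 mM were 0.88 and 0.62, so the rise of 0.57 ± 0.02 returned it to about its untreated score after a decline over the lower doses.

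Metallothioneins, small proteins that bind zinc and copper, continued upwards. Of 9 genes measured, 8 metallothioneins and the zinc exporter SLC30A1, 5 rose and none fell (median 0.368), beside 14.1% and 15.1% of all genes. MT1X scored 3.13, 3.03 and 3.01 at 5 mM, against 2.42, 2.39 and 2.40 at 2 mM, a difference of 0.66 ± 0.03 (adjusted p = 2.6e-11) that took it to the 99.9 percentile. MT2A scored 3.73, 3.90 and 3.90 at 5 mM, against 3.44, 3.23 and 3.73 at 2 mM. On 2 of its 5 mM arrays MT2A held the highest score of the scale, so its difference of 0.38 ± 0.09 had no room to be larger there. MT1F, MT1G and MT1E rose by 0.37 ± 0.02, 0.30 ± 0.03 and 0.17 ± 0.03, and MT1H differed by 0.61 ± 0.24 (adjusted p = 0.0679). These genes are near-identical copies as well. Metal response element cores (TGCGCNC or TGCACNC, either strand) stood in all 4 metallothionein windows that RefSeq gave, beside 38.0% of windows of genes tested. The last 150 bases of both leading genes each held 4 of them, in capitals, at chr16:56682320-56682469 for MT1X and chr16:56608434-56608583 for MT2A, plus strand of GRCh38.p14.
MT1X: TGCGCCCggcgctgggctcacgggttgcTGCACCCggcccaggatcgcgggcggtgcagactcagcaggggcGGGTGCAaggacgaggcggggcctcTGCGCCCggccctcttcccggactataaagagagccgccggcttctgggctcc
MT2A: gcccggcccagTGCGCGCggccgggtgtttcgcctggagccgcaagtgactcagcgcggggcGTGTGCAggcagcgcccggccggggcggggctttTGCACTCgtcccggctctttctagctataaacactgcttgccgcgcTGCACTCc

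Histone genes also leaned upwards, 13 of 29 higher and 4 lower (median 0.322), beside 14.1% and 15.1% of all genes. HIST1H4H (H4C8) scored 0.21, 0.21 and 0.20 at 5 mM, against -2.17, -1.67 and -1.73 at 2 mM (difference 2.06 ± 0.27). HIST2H2AA3 (H2AC18) scored 1.27, 1.21 and 1.22 at 5 mM, against 0.51, 0.64 and 0.69 at 2 mM (difference 0.62 ± 0.04), and its near-identical neighbour HIST2H2AA4 (H2AC19) rose by 0.52 ± 0.04. HIST1H3H (H3C10) rose by 0.92 ± 0.15 and HIST1H2BD (H2BC5) by 0.49 (adjusted p = 1.51e-11). The 4 that fell were H2AFX (H2AX), the variant phosphorylated at DNA breaks, by 0.34, HIST1H4C (H4C3) by 0.26, H3F3A (H3-3A) by 0.17 and H2AFZ (H2AZ1) by 0.11, so the list moved both ways. Of 16 deacetylase genes 3 rose and 1 fell (0 without some single arrays), with SIRT7 higher by 0.25 ± 0.04 and HDAC6 by 0.17 ± 0.04, while HDAC1 and HDAC2 differed by 0.01 and -0.02. HDAC10 rose by 1.83 ± 0.46 from a score near the bottom of the arrays, with -0.57, -0.18 and -1.51 at 5 mM against -2.42, -2.85 and -2.50 at 2 mM. Of 14 acetyltransferase genes 3 fell and none rose. HAT1, which acetylates new histone H4, differed by -0.16 ± 0.03, while the calls of MYST1 (KAT8) and CREBBP ended without any 1 of 4 and of 5 arrays.

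**Figure D4:**
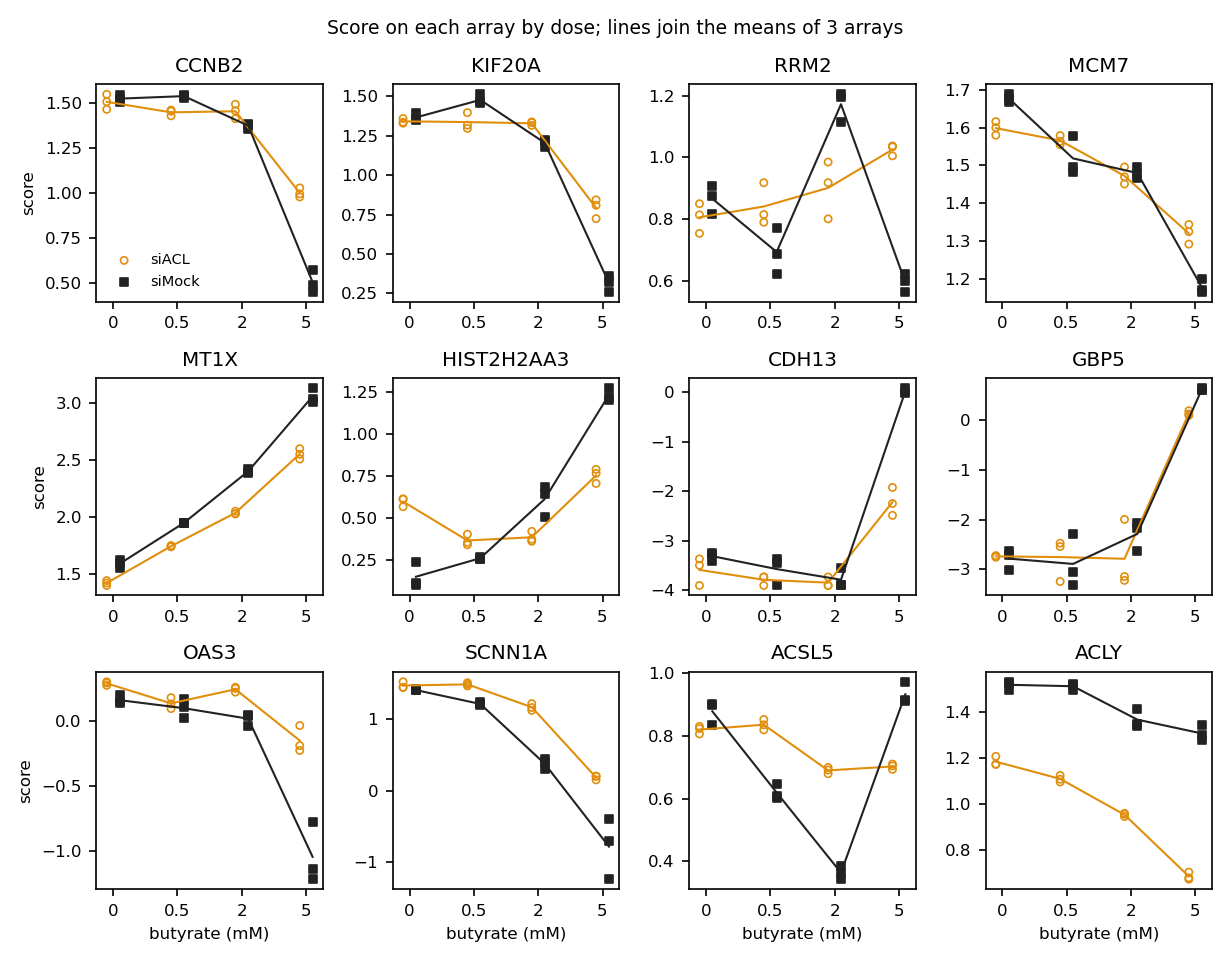
Scores of 12 genes (y axes) on every array at 0, 0.5, 2 and 5 mM butyrate (x axes); open circles are siACL, filled squares siMock, and lines join group means. In siMock, CCNB2, KIF20A, OAS3 and SCNN1A drop further between 2 and 5 mM than between lower doses. MT1X rises at each dose, CDH13 and GBP5 rise at 5 mM, and RRM2 and ACSL5 turn round between 2 and 5 mM.

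Of 25 lysosomal and autophagy genes 11 rose and 2 fell (median 0.043), beside 14.1% higher and 15.1% lower over all genes. The sialidase gene NEU1 rose by 0.39 ± 0.03 and the lysosomal channel gene MCOLN1 by 0.28 ± 0.04, while the protease gene CTSH fell by 0.22 ± 0.03. Of 22 immediate early genes 10 rose and 5 fell, and 3 to 5 fell when 1 array was left out. KLF2, a zinc finger transcription factor, scored 2.21, 2.20 and 2.19 at 5 mM, against 1.79, 1.78 and 1.79 at 2 mM (difference 0.42 ± 0.02). DUSP1, a phosphatase of MAP kinases, rose by 0.33 ± 0.04, CYR61 (CCN1) by 0.31 ± 0.03 and JUN by 0.22, and FOSL1, a FOS family member, fell by 0.30 ± 0.06. GSTP1, a glutathione transferase, rose by 0.47 ± 0.03 and NQO1, a quinone reductase, fell by 0.37 ± 0.02 in a list of NRF2 and glutathione genes with 6 of 22 in each direction. Of 12 enteroendocrine genes 3 rose, VGF, SCG2 by 0.30 ± 0.03 and the gastrin gene GAST by 0.72 ± 0.22, a call that ended without any 1 of 3 arrays, and the chaperone gene SCG5 fell by 1.24 ± 0.29. Of 21 neuronal genes 5 rose and 1 fell, with RUNDC3A higher by 1.70 ± 0.19 and the tubulin gene TUBB3 by 0.26 ± 0.02. The share called among neuronal genes, 28.6%, was near the 29.2% of all genes.

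SCNN1A, the alpha subunit of the epithelial sodium channel, scored -1.24, -0.40 and -0.71 at 5 mM, against 0.39, 0.30 and 0.44 at 2 mM, a difference of -1.16 ± 0.12 (adjusted p = 1.41e-06). It had already been lower at 2 mM than the means of 1.40 untreated and 1.21 at 0.5 mM. KRT7, a simple epithelial keratin, scored -3.49, -3.07 and -3.21 at 5 mM, against -1.24, -1.47 and -0.67 at 2 mM, and SNCG, gamma-synuclein, fell by 2.03 ± 0.20 to scores among the lowest of the arrays. ABCC2, an apical export pump, fell by 1.12 ± 0.16, MMP7, an epithelial metalloprotease, by 1.14 ± 0.20 and the membrane protein gene EMP1 by 0.98 ± 0.18, or by 0.62 without its lowest 5 mM array. Of 11 genes of epithelial identity 7 fell and 1 rose (median -0.15), beside 15.1% lower and 14.1% higher over all genes. That rise ended without some single arrays. The falls included CDX2, a transcription factor of the intestinal lineage, by 0.30 ± 0.04, EPCAM by 0.27 ± 0.04 and E-cadherin, CDH1, by 0.24 ± 0.03. A second EPCAM entry, TACSTD1, fell by 0.22. Of 14 keratins 5 fell and 2 rose (1 without some single arrays). Of 21 genes of the actin cytoskeleton 12 fell and 3 rose (median -0.1), with 1 to 3 higher when 1 array was left out, and tropomyosin TPM2 lower by 0.41 ± 0.02 and ACTA2 lower by 0.35 ± 0.03. Other single falls without overlap were those of ABHD14B by 1.54 ± 0.12, RINL, a RAB5 exchange factor gene, by 1.39 ± 0.15 and REEP3, an endoplasmic reticulum protein gene, by 1.45 ± 0.19.

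Markers of differentiation gave no common direction. Of 16 enterocyte genes 3 rose and 2 fell (1 without some single arrays), of 10 goblet cell genes limma called none (2 at an unadjusted p under 0.05), and of 18 stem cell and Wnt genes 3 rose and 2 fell. Carbonic anhydrase CA2 rose by 0.18 ± 0.03, the Wnt antagonist genes DKK1 and NOTUM rose by 0.31 ± 0.03 and 0.28 ± 0.05, and the Wnt target RNF43 and the adhesion gene CD44 fell by 0.44 ± 0.04 and 0.33 ± 0.03. For enterocyte and stem cell genes these counts lie near the 29.2% of all genes.

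Interferon and antigen presentation genes were called higher more often than lower at 0.5 mM, whereas in the step class I and interferon-stimulated genes were called lower more often than higher and few class II genes were called. Of 15 genes of MHC class I presentation 11 fell and none rose (median -0.157), beside 15.1% lower and 14.1% higher over all genes. Against untreated, 7 rose and 2 fell at 0.5 mM, beside 12% and 10.1% of all genes. That comparison shares no array with the step. HLA-B scored 1.30, 1.26 and 1.32 at 5 mM, against 1.44, 1.45 and 1.46 at 2 mM, and HLA-G fell by 0.22 ± 0.04. The calls of TAPBP (tapasin, -0.31 ± 0.11) and the peptidase ERAP1 (-0.75 ± 0.25) each ended without any 1 of 4 arrays. HLA genes are close copies and may share probes. Of 9 MHC class II genes 1 rose and 1 fell, against 6 higher and none lower at 0.5 mM. HLA-DRA fell by 0.17 ± 0.03 and HLA-DMB rose by 0.14 ± 0.03. Of 21 interferon-stimulated genes 6 fell and 1 rose (0 without some single arrays), against 8 higher and 1 lower at 0.5 mM. The share called in the step was 33.3% for this list and 22.2% for class II, near or below the 29.2% of all genes. OAS3, a sensor of double-stranded RNA, scored -1.14, -1.21 and -0.78 at 5 mM, against 0.04, -0.04 and 0.05 at 2 mM (difference -1.06 ± 0.08). IFITM2 and IFITM3, which block viral entry, fell by 0.41 ± 0.03 and 0.31 ± 0.03, and IFIT1 by 0.32 ± 0.04. No member of the interferon list had a step above 0.33, and GBP5, whose larger rise is described above, is not in it.

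Metabolic lists differed in direction and in how many genes were called, beside 14.1% higher and 15.1% lower over all genes. Of 25 cholesterol genes 5 rose and 7 fell (median 0.003). Among enzymes of the pathway, SC5DL (SC5D) rose by 0.24 ± 0.03, TM7SF2 by 0.21 ± 0.03 and HMGCS1 by 0.15 ± 0.03. Of 19 fatty acid synthesis genes 8 fell and 2 rose, with the regulator SREBF1 lower by 0.32 ± 0.02, the desaturase SCD lower by 0.30 ± 0.03 and the acyltransferase GPAM higher by 0.24 ± 0.03. Of 21 glycolysis genes 10 fell and 3 rose (median -0.06), with enolase ENO1 and glucose-6-phosphate isomerase GPI both lower by 0.18. Of 20 acetyl-CoA supply genes 8 fell and 2 rose. The largest fall was that of PC, at -0.35 ± 0.11, a call that ended without either of 2 arrays. Other falls included the pyruvate dehydrogenase component PDHX at -0.20 ± 0.03 and the citrate carrier SLC25A1 at -0.16 ± 0.03. Of 20 beta-oxidation genes 5 rose and 5 fell, and the coactivator PPARGC1A rose by 1.41 ± 0.23 from low scores. Of 10 butyrate transporters and receptors 2 fell, SLC16A9 by 0.56 ± 0.12 and SLC16A5 by 0.14 ± 0.03. Changes were called for 7 of 43 oxidative phosphorylation genes, 9 of 32 mitochondrial ribosome genes, 8 of 29 proteasome genes and 6 of 17 heat shock genes, with medians between -0.021 and 0.023. Leaving out 1 array gave 0 to 3 higher and 2 to 7 lower for the mitochondrial ribosome, 2 to 4 higher and 1 to 4 lower for the proteasome, 3 to 5 higher for oxidative phosphorylation and 1 to 2 higher for heat shock. It gave 1 to 3 higher for acetyl-CoA supply and for glycolysis, 1 to 2 higher for fatty acid synthesis and 3 to 5 lower for beta-oxidation.

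The step was then set beside the lower doses. The comparison of 0.5 mM with untreated called 4022 genes (22.1%) and used none of the arrays of the step. Of the 2180 genes higher at 0.5 mM (12%), 29.3% rose again in the step and 16.8% fell. Of the 1842 genes lower at 0.5 mM (10.1%), 36.5% fell again and 221 rose, beside 14.1% higher and 15.1% lower over all genes. In 1310 genes both steps had the same direction and in 587 the opposite one, while 3418 of the 5315 genes of the step had no call at 0.5 mM. Group means were ordered over all 4 doses for 42.3% of genes that rose and 43.7% of genes that fell in the step, beside 15.2% and 14.8% of all genes. The step is part of that order, so these shares lie above those of all genes by construction.

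Genes of the step whose means at untreated, 0.5 and 2 mM lay within 0.2 of each other are called flat here. Counted only where the arrays at 5 mM did not overlap those at 2 mM, they were 1510 of its rises and 1638 of its falls. That limit is wider than the median called step of 0.177, so a flat gene may still have changed before the step. The share of all genes within the limit is not given. To compare the step with the whole change up to 2 mM, the difference of both was fitted. This contrast shares the 2 mM arrays with the step, which favours calls in the step's direction. It was called for 3574 genes (19.7%), and 707 rises and 893 falls of the step were among those where the step exceeded the earlier change in its own direction. All 24 spindle genes, 24 of 30 kinetochore genes and 14 of 22 mitotic entry genes were lower in it, beside 10.6% of all genes. Median scores of the spindle list were 1.055 untreated, 1.053 at 0.5 mM, 0.946 at 2 mM and 0.393 at 5 mM. In contrast 20 of 29 ribosome biogenesis genes were higher in it, beside 9.04% of all genes. Of the 29, 17 were lower at 0.5 mM, and in the step 6 rose and 3 fell (median 0.004), with 1 to 3 lower when 1 array was left out. The tRNA synthetase list gave 10 rises and 6 falls in the step, with 13 lower at 0.5 mM, and 2 to 5 fell in the step when 1 array was left out.

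Among the flat genes, the largest falls in the step included PRR11, OAS3, PHLDA3, CDC25C and CCNB2, described above. CCNB2 scored 1.55, 1.52 and 1.51 untreated and 1.38, 1.39 and 1.36 at 2 mM, so it was lower before the step as well. EPR1, an entry that no RefSeq name matched, fell by 1.05 ± 0.08, with scores of -0.78, -1.03 and -0.99 at 5 mM, against 0.02, 0.13 and 0.20 at 2 mM. TMEM194B (NEMP2), a nuclear envelope protein gene, fell by 1.27 ± 0.42, a call that ended without either of 2 arrays, and CD207 by 0.92 ± 0.31, which ended without any 1 of 4. The largest rises from a flat level were those of SEMG1, LGSN, VCX-C (VCX3B, 2.22 ± 0.33), RGS9BP, an anchor of a retinal signalling regulator (1.90 ± 0.30), TMEM178 (TMEM178A, 1.58 ± 0.25) and the collagen gene COL23A1 (1.56 ± 0.34). OR3A3 (1.20 ± 0.40) and RNU5A (RNU5A-1, 1.11 ± 0.30) followed, whose calls ended without any 1 of 5 arrays and without 1 array.

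Some genes turned round. H19, an imprinted non-coding RNA, scored -1.50, -1.15 and -2.05 at 5 mM, against -0.14, -0.20 and -0.19 at 2 mM. Its means were -1.66 untreated and -0.35 at 0.5 mM, so it was high at both lower doses and at 5 mM was close to its untreated score. EBI3, a cytokine subunit gene, KRT13 and FXYD6, a sodium pump regulator, likewise were higher at 0.5 mM than untreated and fell in the step, by 1.49 ± 0.36, 1.02 ± 0.21 and 1.37 ± 0.33. HOXB1 did so with a call that ended without any 1 of 3 arrays. In the other direction UFSP1, a protease of the UFM1 system, had means of -1.06 untreated, -2.09 at 0.5 mM and -2.22 at 2 mM and rose by 2.04 ± 0.19 at 5 mM. STK32B and TMEM22 (SLC35G2) were likewise lower at 0.5 mM than untreated and rose in the step, while the rises of HTR7 and KCNRG were no longer called without any 1 of 3 and 4 arrays. STK32B held the 0.681 percentile untreated, 0.0548 at 0.5 mM and 0.852 at 2 mM, so its earlier fall lay within the lowest ranks of the arrays.

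The same step was measured in siACL cells, with 3 arrays at 5 mM and 3 at 2 mM that share none with siMock. There 5183 genes were called (28.5%), 2584 higher and 2599 lower. In both arms 3060 genes had the same direction, 59.0% of the siACL calls and 57.6% of the siMock calls, and 85 had opposite directions. Over all 18172 genes the differences of both arms had a Pearson correlation of 0.444, and over the 9763 genes with a mean score above 0 it was 0.729, as a description. The difference between the arms was tested as the siACL step minus the siMock step. It was called for 1182 genes (6.50%), 683 higher and 499 lower. Of the 2746 falls in siMock 530 differed, 454 of them with a smaller or opposite step in siACL, and of the 2569 rises 263 differed, 207 of them in that way. A difference of score steps need not be one of transcript amounts.

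Mitosis genes fell in siACL by less. The spindle list had a median of -0.265 in siACL and -0.521 in siMock, with 24 of 24 lower in both arms, and 22 of its 24 genes had a called difference between the arms, beside 3.76% of all genes higher in that contrast. So had 20 of 30 kinetochore genes and 11 of 22 mitotic entry genes, all with the larger fall in siMock. The median score of the spindle list at 2 mM was 1.005 in siACL and 0.946 in siMock. KIF20A fell by 0.54 in siACL and 0.89 in siMock, a difference of 0.35 ± 0.05 (adjusted p = 0.000152), and CCNB2 by 0.45 and 0.87, a difference of 0.42 ± 0.04. Replication genes also differed between the arms, with 11 of 24 fork genes, 8 of 22 licensing genes and 6 of 16 nucleotide supply genes called higher in that contrast. Fork genes had 4 higher and 6 lower in siACL (median 0.045), and RRM2, which fell in siMock, had a step of 0.12 in siACL (adjusted p = 0.0596), a difference of 0.70 ± 0.07. CDKN3, a phosphatase of CDKs, had steps of 0.03 in siACL and -0.38 in siMock.

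Cholesterol synthesis showed the opposite relation. In siACL 19 of 25 genes fell and none rose (median -0.256), against 7 lower and 5 higher in siMock, and the difference was called lower for 15 of 25, beside 2.75% of all genes. HMGCS1 had a step of -0.31 in siACL and 0.15 in siMock. The median score of the list in siACL was 0.917 at 5 mM and 1.157 at 2 mM, and in siMock it was 0.922 at 5 mM and 0.981 at 2 mM, so the arms lay close at 5 mM and apart at 2 mM. Ribosome biogenesis genes also fell more often in siACL, with 19 of 29 lower and none higher there (median -0.104) and 11 differences called lower. Their median score in siACL was 0.875 at 5 mM and 1.054 at 2 mM, and in siMock 0.77 and 0.86, so the arms lay apart at both doses. ACSL5 had a step of 0.01 in siACL and 0.57 in siMock, a difference of -0.56 ± 0.03 (adjusted p = 1.29e-08), and CDH13 one of 1.63 in siACL and 3.81 in siMock. GBP5 (2.93 and 2.91) and RYR3 (2.54 and 2.65) had no called difference between the arms.

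**Figure D5:**
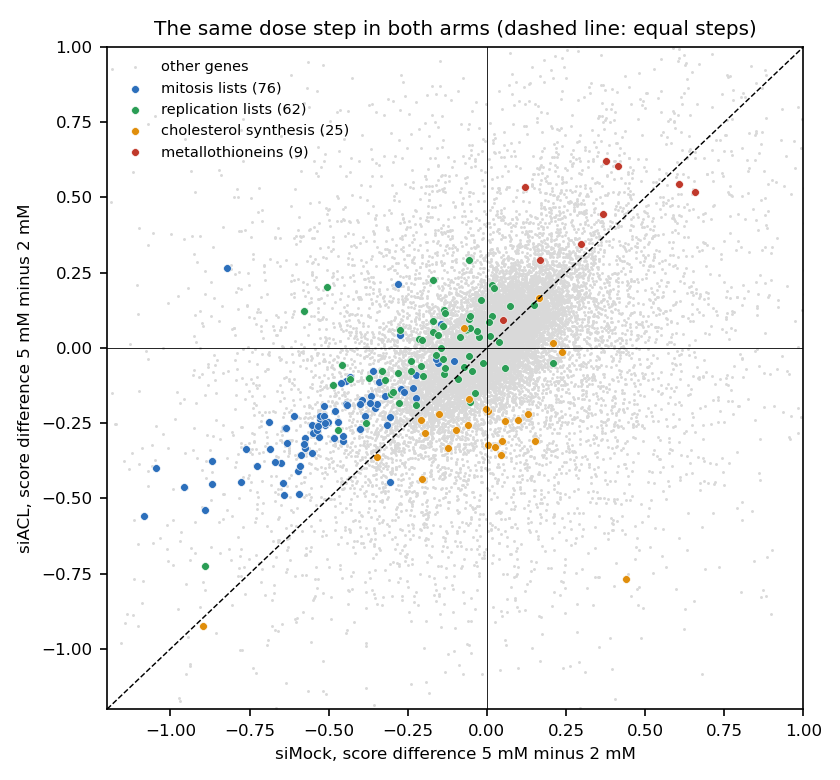
Score differences at 5 mM minus 2 mM in siACL (y axis) and siMock (x axis) for 18172 genes, with 4 groups of lists in colour and a dashed line where both steps are equal; points beyond the axes are not drawn. Nearly all mitosis genes (blue) lie above the line at values below 0 on both axes, replication genes (green) lie around 0 in siACL, and most cholesterol genes (orange) lie below 0 in siACL and on both sides of 0 in siMock.

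Checks of the arrays gave no array that repeats another, with at most 0.248% identical values in any pair. Over genes, arrays at 5 mM correlated with each other at 0.934 to 0.936, arrays at 2 mM at 0.93 to 0.933, and arrays of different dose at 0.905 to 0.912. ACLY, the target of siACL, scored 1.34, 1.30 and 1.28 in siMock at 5 mM, against 1.35, 1.42 and 1.34 at 2 mM. These overlap, and the call of -0.06 ± 0.02 (adjusted p = 0.0476) ended without any 1 of 3 arrays. In siACL its means were 0.68 at 5 mM and 0.95 at 2 mM. Of 13 markers of the colon epithelial line 10 were measured, with a median at the 75.1 percentile at 5 mM and the 81.4 percentile at 2 mM. Median percentiles lay below the middle of the array for leukocytes (4 of 8 markers measured, 23.3 at 5 mM and 8.90 at 2 mM), fibroblasts (4 of 9, 36.8 and 30.1) and endothelial cells (3 of 7, 11.1 and 13.3). At 5 mM, 1 leukocyte marker (CD68, 78.3 percentile) and 2 fibroblast markers (COL1A1, 70.4, and COL6A3, 55.7) lay above the middle. Of these 11 measured markers 1 was called.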

How the data were processed

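Transcript levels of HCT116 cells were measured on 24 Illumina arrays, per the labels. The deposited values are score values, a normal score of the rank within each array; how the authors made them is not stated. Another deposited table has 48 columns of unnamed samples, which were not used, and only its gene annotation served here. Of 20747 entries, 2575 had no symbol and were not tested. In RefSeq, 12258 entries matched by accession, 970 by symbol, 519 by synonym and 4425 not at all.

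Group means were fitted with limma 3.58.1 (R 4.3.3) over all 24 arrays, 8 groups of 3, with no block (16 residual and 1.05 prior degrees of freedom). Genes named are the 12 largest rises and falls with arrays that do not overlap, 10 each among genes with a mean score above 0, the 4 largest calls of each of 54 lists (all where 5 or fewer were called), 8 each that were flat before, 5 each of interactions and turning genes, second measurements and ACLY. Other list members were named after their values were seen; a few genes are not reported here. Members and lists were chosen with earlier results of these data known. Same-numbered arrays of the groups did not deviate together (correlations -0.005, 0.015 and 0.01). In simulated data with 200 changed genes, differences of 0.25, 0.5 and 1 in the step were found for 43.5%, 58.6% and 74% of genes, and 3.28% of calls were false. The simulation used independent normal noise and far fewer changed genes than the 5315 called, so these shares need not hold for the data. Alternatives were other fits, thresholds and scales and leaving out each array.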

Additional observations from a re-analysis of the deposited data

Results flagged for a closer look

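The results below stand out because the step from 2 to 5 mM differed between siACL and siMock in the test of that difference itself (limma, adjusted p under 0.05). Values are the siACL step minus the siMock step, in scores, and a negative one means that siACL moved less upwards or further downwards.

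Genes that fell in siMock, with a smaller or opposite step in siACL, were CEP76 (1.56), CDCA1 (1.51), REEP3 (0.99), ABHD14B (0.96), EPR1 (0.79), PRR11 (0.74), PHLDA3 (0.68), OAS3 (0.66), CDC25C (0.65), CCNB2 (0.42) and KIF20A (0.35). PTH2R (2.00), FUBP1 (1.32) and PRTFDC1 (1.30) fell in siMock too, with calls that ended when 1 array was left out. PTH2R, a peptide hormone receptor gene, had steps of 1.25 in siACL and -0.75 in siMock.

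Genes that rose in siMock, with a smaller or opposite step in siACL, were CDH13 (-2.18), UFSP1 (-2.09), ZNF354A (-1.99), SEMG1 (-1.43), COL5A2 (-1.36), ACSL5 (-0.56), STX1A (-0.26), HIST2H2AA3 (-0.25), HIST2H2AA4 (-0.23), CCNO (-0.17) and MT1X (-0.14). ACLY fell further in siACL (-0.21). Among lists, 22 of 24 spindle genes, 20 of 30 kinetochore genes, 11 of 22 mitotic entry genes, 8 of 16 nucleotide supply genes and 15 of 25 cholesterol genes had a called difference. What lies behind these differences was not tested.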

How the results depend on the processing

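The siMock step of none of 247 named genes changed sign under the alternatives; siACL steps and arm differences of single genes were not recomputed. In the siACL step, 2584 higher and 2599 lower became 1704 and 1623 with only the arrays compared and 2545 and 2473 on percentile ranks. Counts of called genes moved by more than 1.5 times under 3 settings, which by construction use fewer arrays or ask for more. With only the arrays of the groups compared, 2692 genes were called in the siMock step, 3327 in the siACL step, 520 in their difference, 1519 at 0.5 mM and 1837 for the step minus the change up to 2 mM. At an adjusted p under 0.01 the siMock step had 3535, the difference between arms 518, 0.5 mM 2574 and the step minus the earlier change 2128. With a minimum difference of 0.25 there were 1651, 1529, 404, 1222 and 2182, in the same order. Leaving out 1 array at a time gave 4578 to 4669 for the siMock step, 4345 to 4630 for the siACL step, 886 to 1064 for their difference, 3364 to 3501 at 0.5 mM and 2787 to 3387 for the step minus the earlier change. With the replicate number as a block the siMock step had 5209 calls and the other comparisons 5101, 1097, 3999 and 3531; the numbers do not pair the arrays. Of 247 named genes, 243 kept their call with that block, 242 with a trend and robust prior, 224 on percentile ranks, 176 with only the arrays compared and 168 with the minimum difference. Of 108 counts of list members, 58 moved by more than 1.5 times with only the arrays compared, 72 with the minimum difference, 29 at the stricter p and 11 to 19 without 1 array. A correction of scanner values for background was not run, because those columns are tied to no sample here. The spread of low scores limits what could be called among weakly expressed genes.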

Other observations

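Further gene groups moved in both directions over the step, beside 14.1% higher and 15.1% lower over all genes. Of 35 tRNA synthetase genes 10 rose and 6 fell (median 0.047), with 2 to 5 lower when any 1 array was left out, with RARS (RARS1) at 0.21 ± 0.02 and CARS (CARS1) at 0.22 ± 0.03. Of 18 endoplasmic reticulum chaperone genes 6 rose and 6 fell. DNAJB11, a partner of BiP, rose by 0.19 ± 0.02, while the disulfide isomerase gene PDIA4 fell by 0.23 ± 0.04. Of 18 targets of ATF4 2 rose and 3 fell, ASNS higher by 0.11 ± 0.02 and DDIT4, an inhibitor of mTORC1, lower by 0.23 ± 0.03. The 27.8% called among these targets was near the 29.2% of all genes. Splicing factors leaned downwards, 10 of 28 lower and 2 higher, with SNRPA at -0.38 ± 0.04 and U2AF2 at -0.22 ± 0.03; 6 to 9 were lower when any 1 array was left out. Of 27 integrin and matrix genes 7 rose and 5 fell, and 3 to 5 rose when any 1 array was left out, with integrin ITGB5 lower by 0.39 ± 0.02. Feedback genes of MAP kinase signalling gave 3 rises and 5 falls of 18, the falls led by the transcription factor gene ETV4 at -0.31 ± 0.04 and by PHLDA1 at -0.29 ± 0.03.

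The proteasome subunit gene PSMB1, whose call ended without 1 array, differed by 0.16 ± 0.04 in siMock and 0.20 in siACL. Both entries of SPANXA genes, expressed in testis, rose, SPANXA1 by 1.66 ± 0.21 and SPANXA2 by 0.86 ± 0.25; the copies are near-identical.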
